A study of Mus musculus with 4 samples.

Results

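Intermediate filaments are the structural polymers that give glia and other cells their internal scaffold, and 3 genes of this family, Gfap, Vim and Synm, were measured among the 383 genes of a multiplexed error-robust fluorescence in situ hybridization (MERFISH) panel. The 3 genes were chosen by name, with earlier results of these data known, and all 3 were detected in every section. Gfap encodes glial fibrillary acidic protein, the filament best known as a marker of astrocytes. Vim encodes vimentin, which is carried by ependymal cells, endothelium, fibroblasts and some glia. Synm encodes synemin, a large filament protein that builds filaments together with partners such as vimentin and is not known to form them alone. In the brain, astrocytes at the pial surface, in fibre tracts and beside the ventricles are known to be rich in Gfap, whereas those of the striatal grey matter are known for little of it.

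The study asked how striatal astrocytes and their neighbours change with age. Coronal sections of 10 µm through both striata of wild-type C57BL/6NTac mice were imaged, 2 labelled Young from mice aged 2 months and 2 labelled Aged from mice aged 18 months. No treatment or allele separates the groups, which thus differ by age alone as far as the labels tell. The labels name no animals, while the study describes its replicates as biological and its legends count as many mice as there are sections here. The p-values below measure the spread between sections. The 4 sections shared 0 cell identifiers. With 2 sections against 2, an exact permutation test of a single value cannot go below p = 0.333. Ages described below as without overlap reach that bound and no more, and the share of all genes without overlap is not given. Tests were therefore taken from edgeR's quasi-likelihood fit across all panel genes.

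After removal of small or nearly empty cells, 68011 to 74624 cells remained per section, with 18765491 to 36035355 decoded transcripts and a median of 215 to 400 transcripts per cell. Aged 1 was the shallowest section and Young 1 the deepest. Cells were assigned to 12 classes by clustering in which the filament genes took no part, and a class is called X-like since its name rests on panel markers. Of 281824 kept cells, 119358 (42.4%) carried markers of several cell families and were left out of the class values. Among them were 12021 of 24764 astrocyte-like cells, while 38539 cells stayed unnamed. The rule counts detected markers, and the share left out differed between sections. For astrocyte-like cells it was 54.0% and 47.5% in the Young and 42.5% and 50.1% in the Aged sections. For microglia-like cells it was 63.1% and 57.8% against 52.2% and 57.2%. Each section was also divided into 4 zones. The ventricle wall lies within 100 µm of clumped ependymal-like cells, the section border lies within 100 µm of the outer tissue edge, white matter has at least 40% oligodendrocyte-like cells within 100 µm, and parenchyma is the rest. Striatal parenchyma is the portion in which at least 40% of the cells within 150 µm were medium spiny neuron-like, the main neuron type of the striatum. Levels are transcripts per 10000 transcripts of all panel genes over all cells of a class and section. They allow a comparison of 1 gene between cells, but not of 1 gene with another, since probes differ in number and efficiency.

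Gfap lies on the minus strand of chr11:102887336-102900912, Vim on the plus strand of chr2:13573927-13582826 and Synm on the minus strand of chr7:67730160-67759742 (GRCm38, GENCODE annotation). The deposited tables give gene symbols alone. Since the genes differ in how their levels vary between zones, the 150 bases before each RefSeq start site are shown (GRCm38.p6, 5′ to 3′ on the strand of the gene), with matches to the letters CCAAT or TATAAA on either strand in capitals. The Gfap stretch is chr11:102897201-102897350, the Vim stretch chr2:13574161-13574310 and the Synm stretch chr7:67759743-67759892. The RefSeq starts of Gfap and Vim lie inside the longer GENCODE spans, and so do the stretches shown for these genes.
Gfap: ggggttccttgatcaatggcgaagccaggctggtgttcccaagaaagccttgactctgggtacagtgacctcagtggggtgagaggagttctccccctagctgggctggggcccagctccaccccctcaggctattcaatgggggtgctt
Vim: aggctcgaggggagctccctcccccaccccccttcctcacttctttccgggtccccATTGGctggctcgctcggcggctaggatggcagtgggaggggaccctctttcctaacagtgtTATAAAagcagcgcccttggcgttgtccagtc
Synm: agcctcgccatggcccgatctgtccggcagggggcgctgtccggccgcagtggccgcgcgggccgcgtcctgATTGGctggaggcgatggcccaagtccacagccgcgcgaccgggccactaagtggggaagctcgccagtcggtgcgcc
Vim held TATAAA beginning 32 bases before the start and CCAAT, read on the opposite strand, 94 bases before it. A further CCAAT lay 196 bases before the Vim start, outside the stretch shown. Synm held CCAAT on the opposite strand 78 bases before the start. Neither motif, nor TTCNNNGAA or TGANTCA, was found in the stretch of Gfap, which says only that these letters are absent there. Over the 250 bases before the start of 32851 promoters searched on both strands, 33.8% held CCAAT, 12.4% TATAAA, 7.02% TTCNNNGAA and 6.75% TGANTCA.

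The genes drew different pictures of the tissue. Gfap traced the arched fibre tracts above the striatum, the rounded bundles within it, the outer rim and the midline fissure, and left the striatum itself dark. Vim lit thin lines along the lateral ventricles, the same rim and fissure, and scattered points throughout. White matter held 4.77% to 7.66% of the kept cells per section but 14.98% to 24.9% of the Gfap transcripts. The section border held 4.61% to 5.51% of the cells and 22.95% to 39.9% of the Gfap transcripts. The ventricle wall held 2.06% to 2.80% of the cells and 6.13% to 9.54% of the Vim transcripts. Synm was spread more evenly, with 81.6% to 87.5% of its transcripts in parenchyma, where 84.9% to 87.7% of the cells lay. The fissure was enclosed by the tissue outline and counted as parenchyma, so that parenchyma outside the striatum includes cells that line it.

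**Figure D1:**
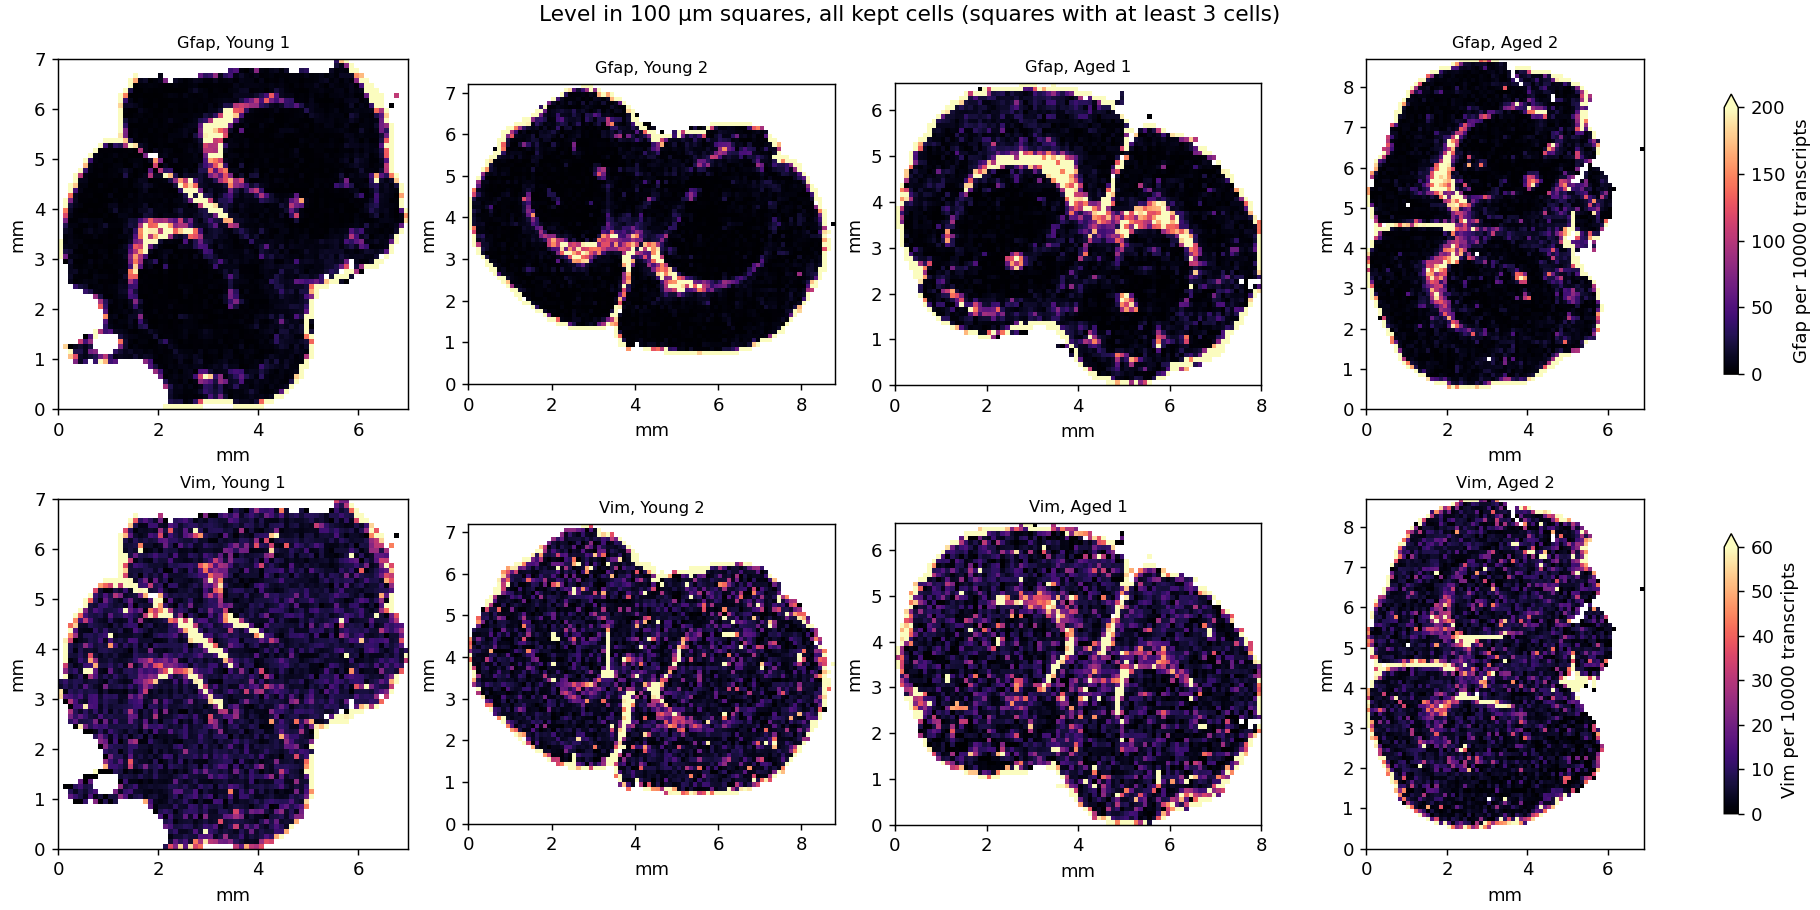
Maps of Gfap (top) and Vim (bottom) in all kept cells of each section, as transcripts per 10000 in squares of 100 µm (axes in mm, squares with at least 3 cells, colour clipped at 200 for Gfap and 60 for Vim). Gfap is bright in fibre tracts, at the rim and in the midline fissure and dark in the striatum, and Vim is bright along the ventricles, the rim and the fissure.

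Among cell classes, Gfap was highest in fibroblast-like cells, a class led by Aldh1a2 and Mgp, genes of the meninges. These cells carried 758 and 770 Gfap transcripts per 10000 in Young 1 and Young 2 and 683 and 592 in Aged 1 and Aged 2, a mean of 701 ± 81.8 (SD, n = 4 sections). Astrocyte-like cells ranked 3, after border and perivascular macrophage-like cells, at 155 ± 23.3 (SD, n = 4). All 4 fibroblast-like values lay above all astrocyte-like values. The order of classes is a description, without a test, since classes are clusters.

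The fibroblast-like cells also carried astrocyte markers. Of 6 astrocyte markers, 5 had a lower mean level per 10000 in them than in astrocyte-like cells, without falling to 0. Gja1, the gap junction gene of astrocytes, had a mean of 367 against 761. Plpp3 was at 127 against 623, F3 at 76.9 against 252 and Cldn10 at 2.02 against 10.4. Aqp4, the water channel of astrocyte endfeet, was as high in the fibroblast-like as in the astrocyte-like cells, with means of 211 and 199, whereas the GABA transporter gene Slc6a11 had a mean of 60.2 against 402. The 3 fibroblast markers summed to 155 to 184 in the fibroblast-like class and to 0.992 to 1.24 in astrocyte-like cells. In the fibroblast-like class Aldh1a2 had a mean of 118 and Mgp of 47.6, while Mmp2 was near the floor at 1.41. At the section border the fibroblast-like cells held 824, 826, 748 and 531 Gfap transcripts per 10000 in Young 1, Young 2, Aged 1 and Aged 2. In the 18, 17, 36 and 32 such cells of striatal parenchyma the level was 194, 10.5, 33.5 and 20.5. The rule on mixed cells, which needs 3 markers, removed 32 of 4529 fibroblast-like cells, and the part of neighbouring astrocyte transcripts in their Gfap level was not tested.

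Border and perivascular macrophage-like cells, which sit along the same surfaces, had 212 ± 29.7 Gfap transcripts per 10000 (SD, n = 4), a range that overlapped that of astrocyte-like cells. Below these came ependymal-like cells at 87.0 ± 15.7, oligodendrocyte-like cells at 72.7 ± 21.2 and neuroblast-like cells at 66.4 ± 12.98, whose ranges overlapped as neighbours in that order. Microglia-like, oligodendrocyte precursor cell (OPC)-like, endothelial-like and mural-like cells had means of 21.4 to 35.3 and likewise overlapped their neighbours. Neuron-like cells (6.07 ± 2.10) and medium spiny neuron-like cells (4.27 ± 1.24) were lowest, below every section of the other classes.

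Vim had another order. Ependymal-like cells, the ciliated lining of the ventricles, led with 155 and 193 transcripts per 10000 at 2 months and 286 and 258 at 18 months, a mean of 223 ± 59.9 (SD, n = 4). No other class reached them. Classes of surfaces and vessels came next and overlapped one another as neighbours, namely macrophage-like (86.1 ± 13.998), fibroblast-like (79.3 ± 5.52), mural-like (72.3 ± 20.3) and endothelial-like cells (66.4 ± 5.07). Neuroblast-like cells had 46.5 ± 9.29. Astrocyte-like cells had 19.2 ± 3.34, which overlapped neither the neuroblast-like cells above nor the OPC-like cells below (7.44 ± 1.76). The other glia and both neuron classes had means of 2.59 to 4.33.

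Synm was also highest in ependymal-like cells, at 98.1 and 88.7 transcripts per 10000 in the Young and 121 and 104 in the Aged sections (103 ± 13.4, SD, n = 4). Oligodendrocyte-like (51.1 ± 14.1) and endothelial-like cells (47.2 ± 5.93) followed and overlapped each other. Macrophage-like and mural-like cells had means of 33.8 and 32.0, fibroblast-like cells 22.4 and neuron-like cells 17.8. Astrocyte-like cells stood next to last, at 4.04 ± 1.38, and overlapped medium spiny neuron-like cells (3.24 ± 0.44). Thus astrocyte-like cells ranked 3 for Gfap, 7 for Vim and 11 for Synm among the 12 classes.

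**Figure D2:**
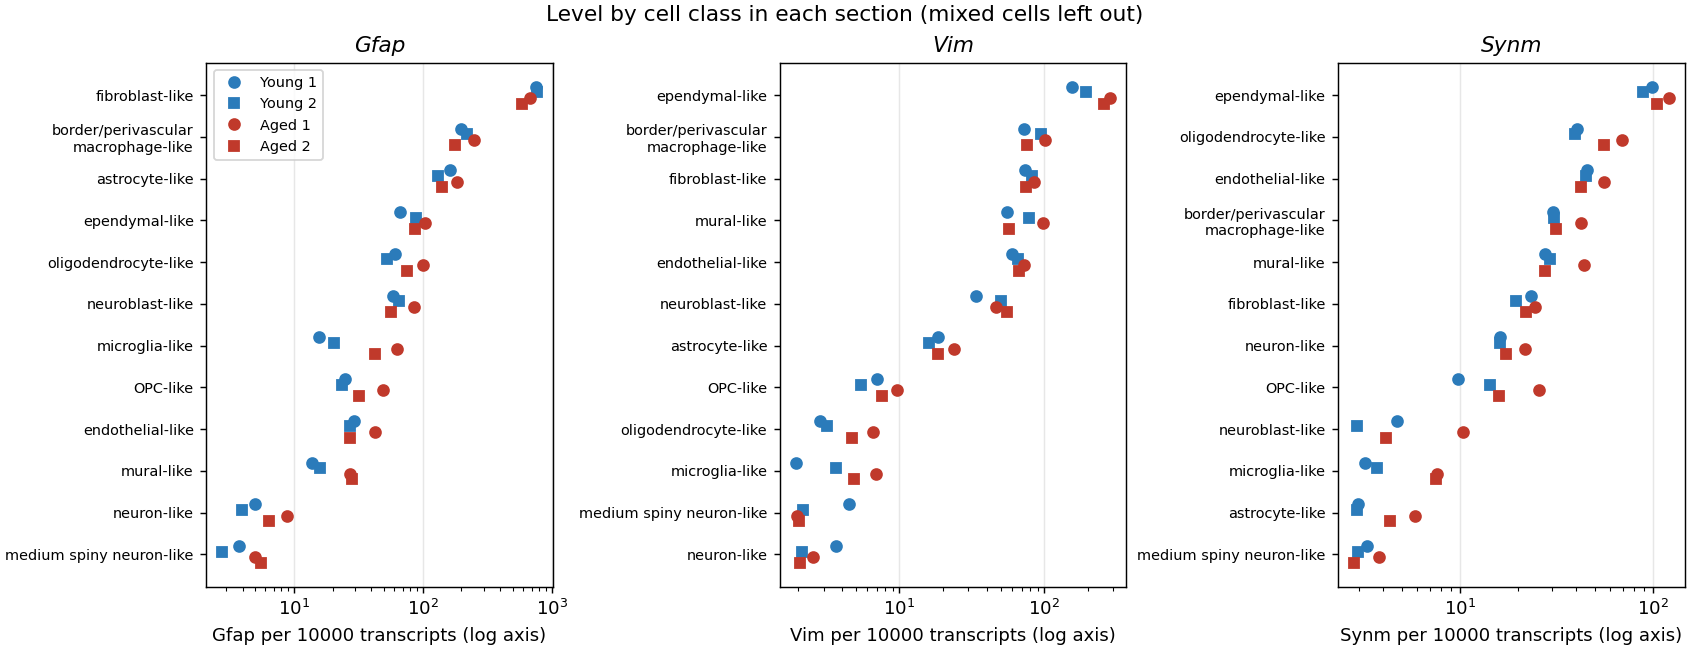
Level of Gfap, Vim and Synm in each of 12 cell classes (transcripts per 10000, log axis, classes ordered by their mean), with 1 point per section. Fibroblast-like cells lead for Gfap and ependymal-like cells for Vim and Synm, and astrocyte-like cells rank 3, 7 and 11.

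Gfap also differed between zones within classes that are not astrocytes. Oligodendrocyte-like cells, the myelin formers, had 12.6, 15.1, 18.8 and 17.7 Gfap transcripts per 10000 in parenchyma (Young 1, Young 2, Aged 1, Aged 2). In white matter the values were 86.7, 70.6, 146 and 104, and at the section border 242, 228, 442 and 286. The summed astrocyte markers of the same cells were 79.4 to 112 per 10000 in parenchyma, 52.1 to 68.3 in white matter and 83.9 to 135 at the border. Endothelial-like cells went from 11.1 to 19.6 Gfap transcripts per 10000 in parenchyma to 102 to 154 in white matter and 137 to 290 at the border. In every section both classes ranked their zones in this order. The differences between zones in these classes were not tested, nor was the part of Gfap transcripts from neighbouring cells or processes.

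Mural-like cells, the pericytes and smooth muscle of vessels, showed zone differences in the other filament genes. Their Vim level was 46.7, 63.0, 76.1 and 46.7 per 10000 in parenchyma and 194, 289, 363 and 196 at the section border. Their Synm level was 22.6, 23.5, 37.0 and 25.5 in parenchyma and 111, 98.5, 125 and 60.4 at the border. For both genes the border values of all sections lay above all values of parenchyma. The class pools 3 clusters in different proportions. The cluster led by Acta2 and Myl9, genes of smooth muscle, held 24.0% to 28.6% of the mural-like cells in parenchyma and 69.8% to 84.6% at the border. Within this cluster Vim was 243, 309, 317 and 233 per 10000 in parenchyma and 298, 396, 520 and 367 at the border. Its Synm level was 60.8, 62.9, 88.8 and 68.6 in parenchyma and 161, 134, 181 and 105 at the border. Both genes were thus higher at the border in each section within this cluster too, by a smaller factor than over the class. The other clusters held 6 to 33 cells per section at the border, and their Vim was also higher there in each section. Their Synm was higher at the border in Young 1 but lower there in Young 2, Aged 1 and Aged 2. In the one with more cells Synm was 28.6, 29.1, 35.3 and 27.7 in parenchyma. At the border it was 49.4, 17.2, 32.5 and 21.3. These zone differences were not tested.

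Within astrocyte-like cells, the level of each of the 3 genes differed between zones, which are set by other cell classes and the tissue edge. In white matter Gfap was 381 and 374 per 10000 in the Young and 453 and 381 in the Aged sections, against 95.0 and 84.5 and 97.9 and 90.7 in parenchyma. The white matter values were thus higher in all 4 sections and did not overlap those of parenchyma. The log2 difference was 2.27 ± 0.17 (SE), or 4.82-fold, at an adjusted p of 8.86e-10 by edgeR's quasi-likelihood test with section as a block and Benjamini-Hochberg adjustment. Of all 261 genes tested in this contrast, 53.6% passed the same threshold, so a difference between zones was common on this panel. Vim rose from 10.5 to 13.5 per 10000 in parenchyma to 45.3, 42.6, 76.2 and 55.1 in white matter (2.34 ± 0.13, 5.08-fold, adjusted p = 6.19e-12). Synm, at 2.25, 2.74, 5.18 and 4.02 in parenchyma, reached 5.88, 4.90, 12.3 and 5.999 in white matter (1.19 ± 0.22, 2.28-fold, adjusted p = 1.28e-04). For Synm the zones overlapped between sections but not within any section.

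Oligodendrocyte markers in these white matter astrocyte-like cells summed to 48.4 to 68.0 per 10000, against 21.6 to 26.0 in parenchyma and 2378 to 3203 in oligodendrocyte-like cells. In oligodendrocyte-like cells Vim was 2.86 to 6.57 per 10000 and Synm 39.3 to 69.0. The log2 difference of Synm in white matter fell to 0.49 with mixed cells kept. The part of oligodendrocyte transcripts in the white matter results was not tested.

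Vim in astrocyte-like cells of the ventricle wall was 58.7, 57.7, 69.5 and 44.5 per 10000, above parenchyma in all 4 sections (2.12 ± 0.14 on the log2 scale, 4.35-fold, adjusted p = 4.37e-10). Gfap was 186, 162, 148 and 179, a rise of 0.73 ± 0.17 (1.66-fold, adjusted p = 0.00167). Synm was 5.92, 3.50, 6.32 and 8.89, with a log2 difference of 0.66 ± 0.30 that did not pass the threshold (adjusted p = 0.0789), and it lay below zero, at -0.14, with mixed cells kept. Without Aged 1 it was 0.83 and passed (adjusted p = 0.0437). In this contrast 45.2% of the 261 genes passed. Ependymal markers summed to 2.96 to 13.4 per 10000 in these astrocyte-like cells, 4.31 to 5.34 in parenchyma and 43.0 to 48.1 in ependymal-like cells. Aged 2 had the lowest sum, at 2.96, and the lowest Vim, at 44.5, which still lay above its parenchyma. The part of ependymal transcripts in the Vim result was not tested.

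At the section border Gfap was 512, 325, 575 and 230 per 10000, the widest spread of any zone, and each section was still above its parenchyma (2.12 ± 0.17, 4.35-fold, adjusted p = 1.41e-08). Vim was 26.6, 26.3, 32.4 and 23.8 (1.20 ± 0.13, 2.29-fold, adjusted p = 1.07e-06). Synm was 5.12, 3.08, 3.85 and 3.87, within its range in parenchyma, with a log2 difference of 0.21 ± 0.24 (adjusted p = 0.529) that was negative, at -0.28, with mixed cells kept. In this contrast 40.2% of the genes passed. Fibroblast markers in border astrocyte-like cells summed to 1.35 to 3.42 per 10000, above the range given earlier for all astrocyte-like cells. In fibroblast-like cells they summed to 155 to 184, and the part of fibroblast transcripts in the border results was not tested. Over the 3 zones, 7 of the 9 tests of the filament genes passed.

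The size of these steps depends on the reference. Striatal astrocyte-like cells had 30.1, 21.1, 22.9 and 28.9 Gfap transcripts per 10000, and those of the other parenchyma 125, 103, 121 and 111. Vim was 5.001, 7.03, 6.19 and 7.33 in the striatum and 15.6, 11.5, 15.8 and 12.9 in the other parenchyma. Neither gene overlapped between both portions. With striatal parenchyma as the reference, an alternative added after seeing the maps, the log2 differences of Gfap were 2.53 at the ventricle wall, 4.08 in white matter and 3.87 at the border. Those of Vim were 2.98, 3.21 and 2.00. Those of Synm were 1.42, 1.95 and 0.92, and each passed the threshold.

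**Figure D3:**
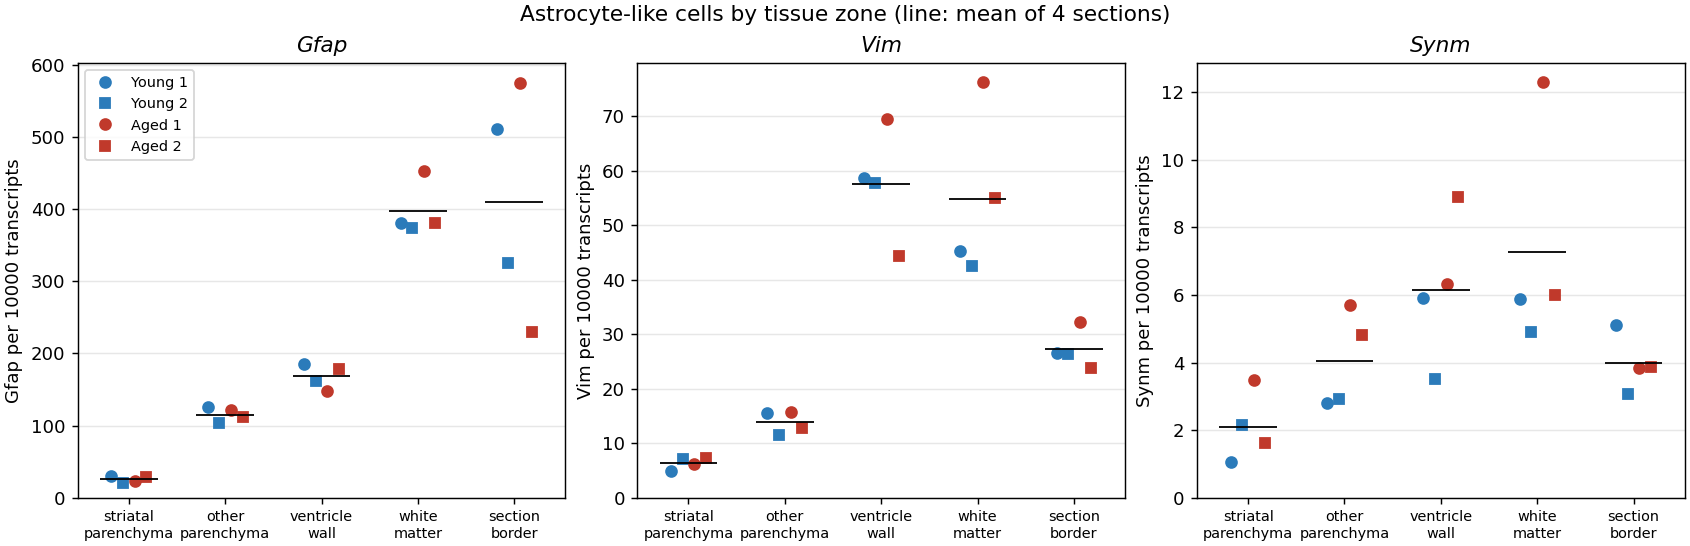
Level of Gfap, Vim and Synm in astrocyte-like cells of each zone (transcripts per 10000, linear axis from 0), with 1 point per section and a line at the mean of the 4 sections. Gfap and Vim are lowest in the striatum in all sections, Gfap peaks in white matter and at the border, and Vim peaks at the ventricle wall and in white matter.

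The levels differed over short distances. Within 25 µm of the clumped ependymal-like cells, Vim in astrocyte-like cells was 63.9 to 91.5 per 10000 over the sections, at 50 to 100 µm it was 16.9 to 41.5, and at 100 to 150 µm 10.7 to 20. Over the same steps Gfap was 184 to 267, 49.2 to 131 and 15.04 to 85. From the section border, Gfap was 286 to 673 at 25 to 50 µm, 130 to 385 at 100 to 150 µm and 48.3 to 114 at 150 to 200 µm. The innermost bin of the border held as few as 15 cells per section. At 100 to 150 µm it was 130 in Young 1 and 350 in Young 2, and 385 in Aged 1 and 130 in Aged 2, so the depth of the Gfap-rich rim varied between sections of 1 age.

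Gfap ran with the share of oligodendrocyte-like neighbours in a graded way. It was 44.5 to 49.4 per 10000 where 10% to 20% of the cells within 100 µm were oligodendrocyte-like. It was 76.4 to 104 at 20% to 30%, 133 to 197 at 30% to 40%, 192 to 259 at 40% to 50%, 307 to 450 at 50% to 60% and 440 to 627 above. Each step was upward in every section. Vim went from 4.37 to 9.91 at 10% to 20% to 60.2 to 113 at the highest shares. Below 10% Gfap was higher again, at 86.1 to 122. Cells of the section border and the ventricle wall are not in this profile.

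**Figure D4:**
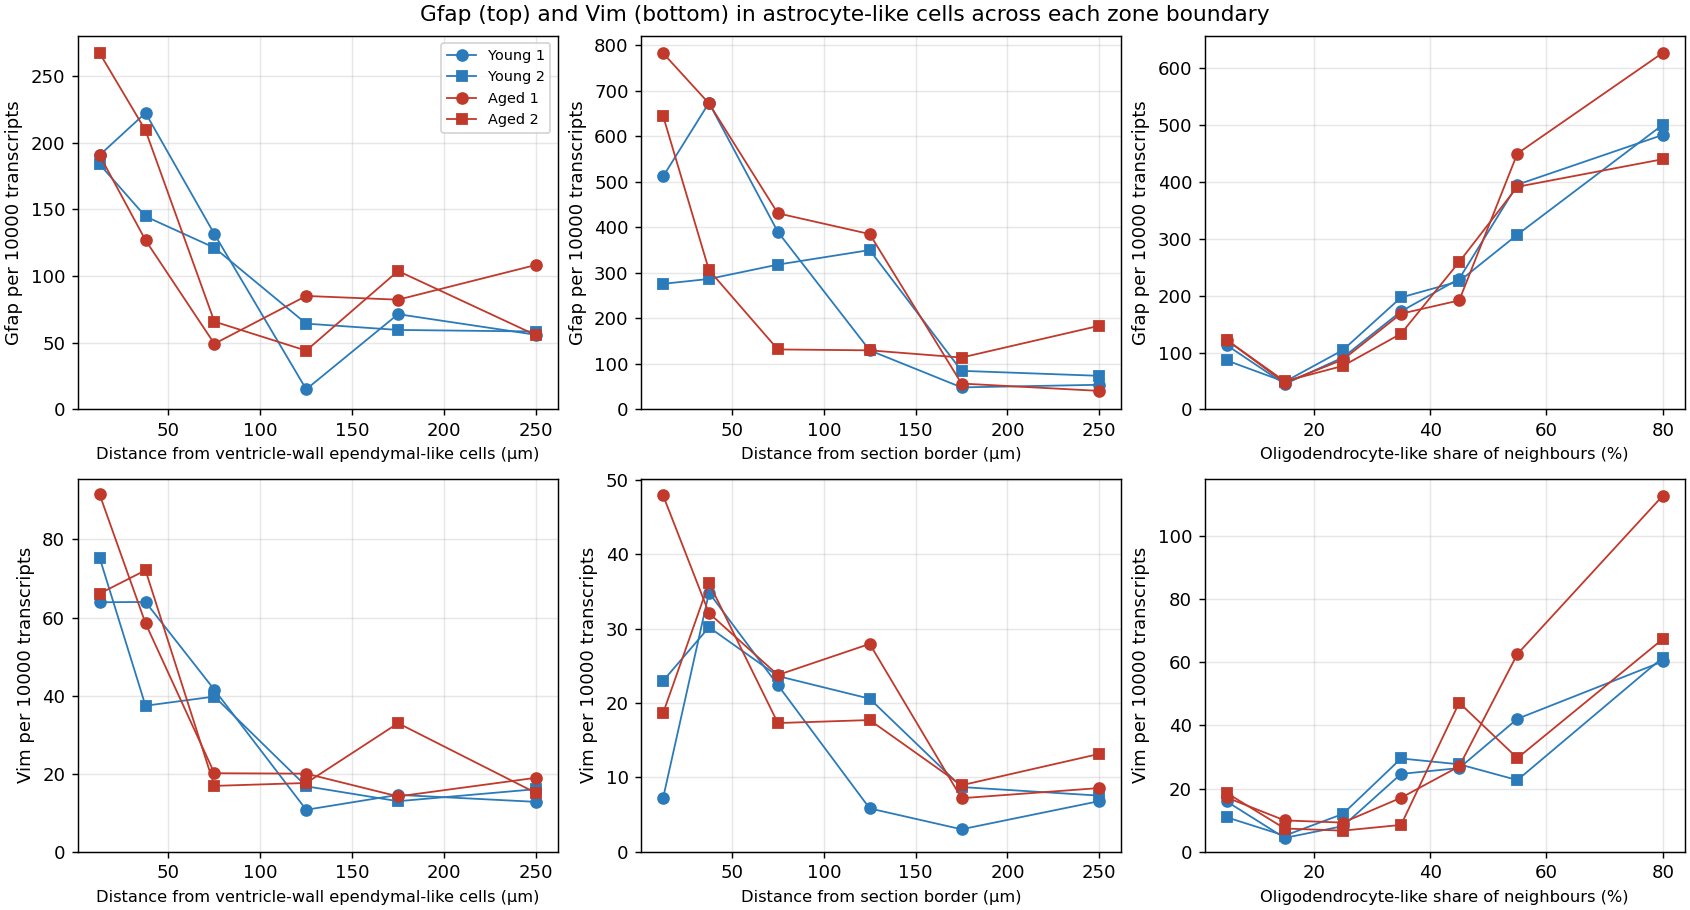
Gfap (top) and Vim (bottom) in astrocyte-like cells, as transcripts per 10000, against the distance from ventricle-wall ependymal-like cells, the distance from the section border (both in µm) and the oligodendrocyte-like share of neighbours within 100 µm (%). Each line is a section, with Vim highest within 50 µm of the ventricle wall and Gfap higher at each step of the oligodendrocyte-like share from 10% up.

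The zones differed in how many cells carried the transcripts. To compare cells of unequal depth, each cell was thinned to 50 transcripts and shallower cells were left out. Gfap was then detected in 20.3%, 17.6%, 18.0% and 20.1% of parenchymal astrocyte-like cells (Young 1, Young 2, Aged 1, Aged 2). Without thinning the shares were 41.8%, 35.5%, 32.4% and 36.3%. In white matter the thinned shares were 71.4%, 72.1%, 73.8% and 67.8%, well above those of parenchyma in every section. At the border they were 41.8% to 51.4% and at the ventricle wall 33.3% to 45.3%. Neuron-like cells of parenchyma, which should lack Gfap, showed it in 2.34% to 4.33% after thinning. Before thinning their median depth was 248 to 385 transcripts, against 133 to 158 in the parenchymal astrocyte-like cells. Where other zones held enough neuron-like cells, the thinned shares were 8.08% and 11.9% in white matter (Aged 1, Aged 2). At the border they were 4.72%, 18.5% and 12.4% (Young 1, Aged 1, Aged 2), and at the ventricle wall 0% and 5.45% (Young 2, Aged 2). Oligodendrocyte-like cells showed Gfap in 5.56% to 6.66% in parenchyma, 28.4% to 42.0% in white matter and 52.4% to 67.4% at the border. The source of these transcripts was not tested.

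Vim was detected more often in astrocyte-like cells with Gfap than in those without it in 15 of the 16 combinations of zone and section. In parenchyma, thinned cells with Gfap carried Vim in 13.6%, 13.3%, 11.9% and 11.9% of cases, and those without Gfap in 3.13%, 2.997%, 3.04% and 3.11%. These shares pool striatal and other parenchyma, which differ in the level of both genes. The part of this pooling in the shares was not tested. In white matter Vim was found in 21.0% to 33.0% of the cells with Gfap and 6.25% to 19.2% of those without. At the section border the shares were 14.3% to 21.1% with Gfap and 8.08% to 12.8% without. The exception was the ventricle wall of Young 1, where Vim was found in 20.97% of cells with Gfap and 21.3% of those without, and in the other sections there the shares were 32.4% to 39.0% and 7.35% to 20.5%. Cells within a section share that section, so these shares are given without a test. Ependymal-like cells of the ventricle wall carried Vim in 54.5%, 60.5%, 74.5% and 66.0% and Synm in 40%, 36.3%, 51.9% and 38.2% after thinning.

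With age, none of the filament genes passed the threshold in astrocyte-like cells as a whole. Gfap was 162 and 132 per 10000 in the Young and 184 and 140 in the Aged sections, which overlap. Its log2 change was 0.08 ± 0.14 (SE), with an adjusted p of 0.914 by edgeR's quasi-likelihood test and Benjamini-Hochberg adjustment. Vim was 18.5 and 16.1 against 23.9 and 18.5 (0.24 ± 0.21, adjusted p = 0.704). Synm was 2.99 and 2.96 against 5.87 and 4.36, without overlap, and its log2 change of 0.73 ± 0.29 did not pass after adjustment (adjusted p = 0.246). Of the 365 genes tested in this class, 0.548% passed. Per 1000 µm³ of cell volume, Gfap was 7.26 and 5 in the Young and 4.85 and 4.93 in the Aged sections. On that scale the median log2 change of all genes was -0.39, that of Gfap -0.32 and that of Vim -0.16. Relative to the median of all genes, Gfap was at 0.06 and Vim at 0.23, close to the values without volume scaling.

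Over the 12 classes, 1 of the 36 tests of the filament genes passed, 14 had an unadjusted p under 0.05, and DESeq2 called 2. Among all genes, 19 to 83 per class had an unadjusted p under 0.05, of 218 to 383 tested. The call among the filament genes was Gfap in microglia-like cells, a class named for the resident immune cells of the brain. It was 15.7 and 20.4 per 10000 in the Young and 62.6 and 42.4 in the Aged sections, without overlap. The log2 change was 1.31 ± 0.23, or 2.48-fold (adjusted p = 0.0263), where 0.599% of the 334 genes tested passed. The call was lost with the first clustering at resolution 0.3 (adjusted p = 0.0623) and without Young 1 (adjusted p = 0.0799), which leaves 1 Young section. With 1 section in a group, here and below, the spread comes from the other group alone. The summed astrocyte markers in microglia-like cells moved alongside, from 84.1 and 108 in the Young to 173 and 147 in the Aged sections. Gfap in microglia-like cells also followed the zone, at 10.8, 9.998, 27.4 and 21.1 in parenchyma, 45.3, 64.4, 212 and 92.2 in white matter and 111, 141, 284 and 220 at the border. In the striatum it was 1.38, 4.11, 7.32 and 12.8. The part of astrocyte transcripts in the change was not tested.

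Ependymal-like cells came close for Vim. Both Aged sections, at 286 and 258 per 10000, lay above both Young sections, at 155 and 193. The log2 change of 0.59 ± 0.18 (1.51-fold) had an adjusted p of 0.0515 with edgeR and 0.0102 with DESeq2, in a class where 9.89% of the 273 genes tested passed. Gfap (0.25 ± 0.19, adjusted p = 0.517) and Synm (0.21 ± 0.18, adjusted p = 0.528) had smaller differences in the same cells.

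Oligodendrocyte-like cells had higher mean levels of all 3 genes in the Aged sections, and none passed. Gfap was 60.7 and 53.2 per 10000 in the Young and 101.3 and 75.7 in the Aged sections (0.55 ± 0.20, adjusted p = 0.0897). Vim was 2.86 and 3.17 against 6.57 and 4.71 (0.81 ± 0.29, adjusted p = 0.0803). Synm was 40.3 and 39.3 against 69.0 and 55.7 (0.56 ± 0.20, adjusted p = 0.0852). None of the 3 genes overlapped between the ages, a trait whose share over all genes is not given. In this class 5.29% of 378 genes passed. All 3 passed with library totals in place of TMM factors, and also without Aged 2, where Aged 1 stands alone against the Young sections. White matter, where Gfap is high in these cells, held 3512 and 3377 kept cells in the Young and 5244 and 5639 in the Aged sections, and the plane of section and age cannot be told apart for such counts. Taken zone by zone, the Gfap levels given earlier for these cells were higher with age, without overlap, in parenchyma, white matter and at the border. Their thinned shares with Gfap overlapped between the ages in parenchyma and at the border, but not in white matter. Age within a zone was not tested in this class.

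Mural-like cells had 13.9 and 16.1 Gfap transcripts per 10000 in the Young and 27.2 and 28.3 in the Aged sections (0.92 ± 0.23, adjusted p = 0.0720), without overlap. With either Aged section alone against the Young sections, so that the spread is that of the Young sections, the adjusted p was 0.0170 (without Aged 1) and 0.00535 (without Aged 2). Astrocyte markers in these cells summed to 352 and 431 against 526 and 428. In OPC-like cells Gfap (0.68 ± 0.25, adjusted p = 0.110) and Synm (0.72 ± 0.28, adjusted p = 0.131) did not pass, in a class where 6.07% of genes did. In fibroblast-like cells, where Gfap was highest, its log2 change was -0.28 ± 0.13 (adjusted p = 0.482), and 1.63% of genes passed.

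In 6 classes, the mural-like among them, 0% of the genes tested passed with edgeR's quasi-likelihood test. In these, 48 genes had an unadjusted p under 0.05 in endothelial-like cells, 31 in mural-like, 30 in neuron-like, 29 in macrophage-like, 24 in medium spiny neuron-like and 19 in neuroblast-like cells. DESeq2 called 10 genes in endothelial-like cells, 1 each in neuron-like and macrophage-like cells and 0 in the others. In neuron-like and medium spiny neuron-like cells Gfap had log2 changes of 0.77 ± 0.27 and 0.73 ± 0.24 from levels of 2.78 to 8.81 per 10000 (adjusted p = 0.416 and 0.714).

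**Figure D5:**
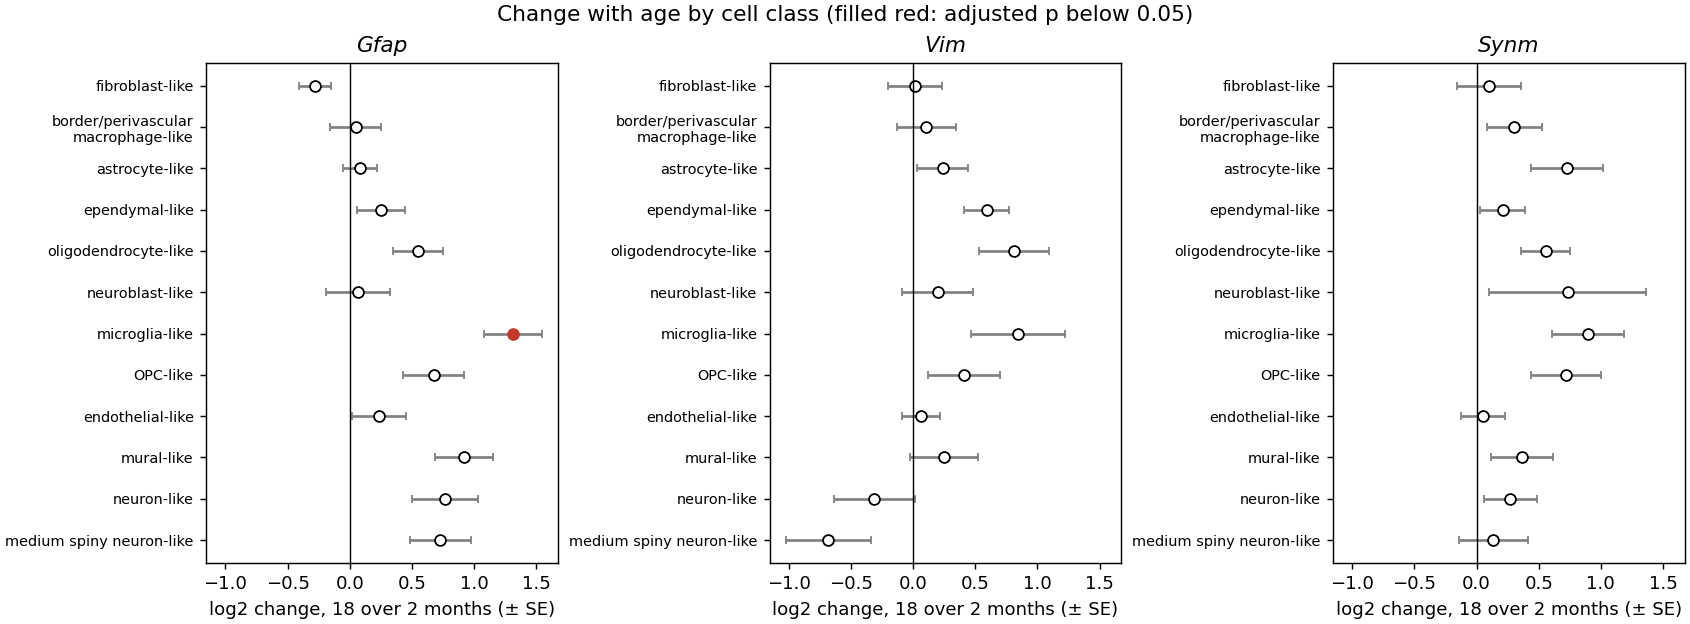
Log2 change of Gfap, Vim and Synm from 2 to 18 months in each cell class (point) with its standard error (bar), from edgeR's quasi-likelihood fit on 2 Young and 2 Aged sections. A filled red point marks an adjusted p below 0.05, which Gfap in microglia-like cells alone reached, at 1.31.

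Within zones, the change of the filament genes in astrocyte-like cells passed in 0 of 11 tests with edgeR's quasi-likelihood test, with 2 at an unadjusted p under 0.05 and 0 called by DESeq2. Synm at the ventricle wall was too low to be tested. In parenchyma Synm was 2.25 and 2.74 per 10000 in the Young and 5.18 and 4.02 in the Aged sections (0.83 ± 0.28, adjusted p = 0.247), without overlap, and the log2 change of Gfap was 0.01 ± 0.14. In white matter Vim was 45.3 and 42.6 against 76.2 and 55.1, also without overlap (0.56 ± 0.22, adjusted p = 0.284), while that of Gfap was 0.12 ± 0.18. At the ventricle wall the log2 changes of Gfap and Vim were -0.18 ± 0.20 and -0.12 ± 0.25. At the section border Gfap gave -0.09 ± 0.44 (adjusted p = 0.985), a value that rests on single sections. Without Aged 1 it was -0.86 (adjusted p = 0.00645, with the spread of the Young sections alone), without Aged 2 it was 0.43, and without Young 1 it was 0.31. Among all genes tested, 0% passed in parenchyma (35 at an unadjusted p under 0.05, 3 by DESeq2), 0.455% in white matter, 7.02% at the ventricle wall and 0% at the border (8 unadjusted, 0 by DESeq2).

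Whether the change with age in a zone differed from that in parenchyma was tested by an interaction term, and 0 of 9 such tests of the filament genes passed with edgeR, with 1 at an unadjusted p under 0.05 and 0 by DESeq2. That 1 was Vim in white matter, where the change exceeded that in parenchyma by 0.45 ± 0.18 on the log2 scale (adjusted p = 0.471). For Gfap the interactions were -0.24 ± 0.34 at the ventricle wall, 0.09 ± 0.31 in white matter and -0.16 ± 0.31 at the border, the last reaching -0.93 without Aged 1 (adjusted p = 0.0254, with Aged 2 as the lone Aged section). Over all genes, 1.47% passed at the ventricle wall, 1.1% in white matter and 0.366% at the border.

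Over all kept cells of a zone, a sum that depends on class names through the zones alone, 0 of 12 tests passed with edgeR, 5 had an unadjusted p under 0.05 and DESeq2 called 0. In such sums fewer cells of a type and less RNA per cell cannot be told apart. Synm in white matter came closest, at 27.5 and 30.4 per 10000 in the Young and 50.2 and 41.1 in the Aged sections (0.64 ± 0.23, 1.56-fold, adjusted p = 0.0744). It passed with the first clustering at resolution 0.3, with a white matter threshold of 60%, and with 1 oligodendrocyte-like cluster led by interneuron genes left unnamed, which alters the white matter zone (adjusted p = 0.0441). Vim at the ventricle wall was 44.8 and 48.1 against 78.2 and 61.2 (0.57 ± 0.22, adjusted p = 0.203). Gfap in parenchyma was 11.0 and 9.50 against 14.2 and 13.7 (0.49 ± 0.19, adjusted p = 0.583). None of these 3 overlapped between the ages, a trait whose share over all genes is not given. Of all 383 genes, 6.53% passed in white matter, 4.44% at the ventricle wall, 0.261% in parenchyma and 0% at the border (2 unadjusted, 0 by DESeq2).

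A list of 16 genes held filament partners, other genes of the cytoskeleton and regulators, and 14 of them could be tested between zones in astrocyte-like cells. In white matter 5 of them were higher and 1 lower, or 42.9% of the 14 against 53.6% of all genes, with a median log2 difference of 0.29 against 0.03 over all genes. Ahnak, a giant scaffold protein, rose by 2.16 ± 0.14 there, close to Vim, and Cryab, a small heat shock protein that binds filaments, by 1.29 ± 0.21. Actn1 (1.05), Id3 (0.93) and the spectrin Sptbn1 (0.38) also rose, and the growth factor gene Fgf2 fell by 0.75. At the ventricle wall 3 were higher and 1 lower (28.6% against 45.2% of all genes, median 0.03 against 0.00). Ahnak rose by 2.09 ± 0.15, the tropomyosin Tpm4 by 0.81 and the transcription factor gene Stat3 by 0.37, and Cryab fell by 1.02. At the border 7 were higher and 1 lower (57.1% against 40.2% of all genes, median 0.28 against -0.05). These were Id3 (1.23), Ahnak (1.14), Myl12a (0.75), Ezr (0.52), Stat3 (0.29), Sox9 (0.27) and Sptbn1 (0.21), with Egfr at -0.68. Ahnak was thus called in the same direction as Vim in all 3 zones. With age in astrocyte-like cells 0 of the 16 passed with edgeR (1 unadjusted, 0 by DESeq2).

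A second list held 12 genes known from reactive glia, 9 of them testable between zones. The share that passed was below that of all genes in each zone, at 33.3% against 53.6% in white matter, 33.3% against 45.2% at the ventricle wall and 22.2% against 40.2% at the border. In white matter 3 were higher, namely Thbs4 (4.75 ± 0.24), which encodes a secreted matrix protein, the complement gene C4b (1.92 ± 0.18) and Tm4sf1 (1.29 ± 0.22). At the ventricle wall Thbs4 (3.50) and C4b (1.33) were higher and S100b, a calcium-binding protein of astrocytes, was lower at -2.33. At the border Cp (1.23) and S100b (0.37) were higher. With age in astrocyte-like cells 0 of the 12 passed (4 unadjusted, 0 by DESeq2), with a median log2 change of 0.19 against -0.02 over all genes.

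The panel genes whose levels ran most like those of each filament gene were found over 117 sums of 33 class and zone combinations with at least 50 cells, as Pearson's r of log2 values. The sums share sections and depth, so r is a description. For Gfap these were Igfbp5 (0.80), Aqp4 (0.76), Prdx6 (0.73), Hopx (0.72) and Gja1 (0.69). For Vim they were Ahnak (0.89), Tm4sf1 (0.86), Timp3 (0.86), Tpm4 (0.82) and Myl9 (0.81). For Synm they were Slc16a1 (0.71), Cald1 (0.64), Grb14 (0.62), Nampt (0.62) and Polk (0.60). Among the filament genes, r was 0.55 for Gfap with Vim, 0.40 for Vim with Synm and 0.20 for Gfap with Synm.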

How the data were processed

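MERFISH images of 4 sections were decoded by the authors with MERLIN and segmented into cells. The deposited tables hold the count of each of 383 genes in each segmented cell, without normalization, together with cell positions and cell volumes, a signal from imaging in µm³. A deposited table of the mean count per cell for each gene and section, a signal per section by the authors, served as a check of the reading.

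After the study's methods, cells were dropped below 10 genes or below 50 µm³. Scaled counts without the filament genes and both gene lists were clustered by the Louvain method (igraph 0.11.9; 15 principal components, 20 neighbours, resolution 0.08, then 0.5 within each cluster). No annotation by the authors was used. A cluster took the class with the highest median marker fold of at least 5, or kept the name of its parent cluster at 1.5, with at least 3 markers past 1.5-fold. It stayed unnamed where over 60% of its cells came from 1 section, where its top 10 genes held more listed markers of another class, or where it was shallow without a marker of its own. This rule was set after seeing the clusters. Genes outside the marker lists did not count in it, so 1 oligodendrocyte-like cluster led by interneuron genes such as Sst and Gad2 kept its name. Of its 3218 cells 3196 were mixed and left out of class values, but all count in the white matter zone, so an alternative leaves it unnamed. A cell was mixed with at least 3 markers of its own and at least 3 of another family of classes. The fibroblast and ependymal lists hold 3 markers each, so the rule reaches fewer cells there. No doublet caller was run. The level of 1 of the 7 astrocyte markers is not reported here.

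Counts were summed per section, class and zone and tested with edgeR 4.0.16 (R 4.3.3, TMM, filterByExpr, quasi-likelihood test, Benjamini-Hochberg adjustment over all genes tested, threshold 0.05), with section as a block for contrasts between zones. Standard errors follow from the test statistic. The fit was tested on simulated data. Alternatives were DESeq2 1.42.0, other scalings, filters, clusterings, zone limits, sections left out and a replicate block. Depth was 18765491 to 36035355 transcripts per section, and counts in single cells are limited by it. The genes named are the filament genes, those of both lists that passed a threshold, the 5 genes most like each filament gene, and cell type markers that check a class. The filament genes and lists were chosen with earlier results of these data known. Groups follow the sample titles and age labels, and labels inside the tables of the Young sections carry other numbers.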

Additional observations from a re-analysis of the deposited data

Results flagged for a closer look

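In astrocyte-like cells the change of Thbs4 with age differed between zones by the interaction term of edgeR's quasi-likelihood fit. Thbs4 was 14.5 and 9.57 per 10000 transcripts in parenchyma of Young 1 and Young 2 and 5.85 and 3.43 in Aged 1 and Aged 2. In striatal parenchyma it was 2.14 and 0.834 against 2.56 and 0.373, from 24, 7, 19 and 3 transcripts. In the other parenchyma, which includes the fissure, it was 20.3 and 12.1 against 6.89 and 4.45. In white matter it was 259 and 175 against 199.9 and 133, and the change there exceeded that in parenchyma by 1.03 ± 0.20 on the log2 scale (adjusted p = 0.0125). At the section border it was 2.93 and 3.29 against 8.47 and 5.61, and the change exceeded that in parenchyma by 2.54 ± 0.36 (adjusted p = 5.95e-04). The border values rest on 12, 16, 33 and 29 transcripts. Gfap, Vim and Synm had no such interaction past the threshold.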

How the results depend on the processing

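The change of Gfap in astrocyte-like cells (0.08 on the log2 scale) ranged from -0.13 to 0.29 with 1 section left out. Scaling to summed cell volume, which put the median of all genes at -0.24 to -0.73 in the age comparisons of classes and zones, moved several values below 0 along with it. Gfap was then -0.32 and Vim -0.16 in astrocyte-like cells, Gfap -0.22 and Synm -0.26 in ependymal-like cells, Gfap -0.0036 in oligodendrocyte-like cells, Vim -0.0018 in white matter astrocyte-like cells, Gfap -0.093 over all cells of parenchyma, and Synm -0.23 at the border against parenchyma. Relative to the median of all genes under that scaling these were, in the same order, 0.06, 0.23, 0.23, 0.19, 0.46, 0.58, 0.47 and 0.26, each with the sign it had before. Gfap at the border (-0.09) was 0.018 with the first clustering at resolution 0.3 and 0.078 with zones of 50 µm, and -0.86 to 0.43 with 1 section left out.

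Between zones, Synm at the ventricle wall (0.66) was 0.82 without TMM factors, 1.87 at resolution 0.3, 0.89 with zones of 50 µm, 1.42 against striatal parenchyma and -0.14 with mixed cells kept, and 0.44 to 0.83 with 1 section left out. Synm at the border (0.21) was -0.28 with mixed cells kept, 0.92 against striatal parenchyma and -0.082 to 0.43 with 1 section left out. Gfap and Vim kept their direction and their call in all zones under every alternative run.

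Of the 36 tests in classes, 1 passed, against 2 with DESeq2, 4 without TMM factors, 2 at resolution 0.3 and 0 to 5 with 1 section left out. Of the tests in astrocyte-like cells of zones 0 passed, against 2 with volume scaling. These 2 were falls with age at the ventricle wall, with log2 changes of -0.87 for Gfap and -0.87 for Vim. Relative to the median of all genes under that scaling they were -0.14 and -0.13. Interactions gave 0, and 0 to 1 with 1 section left out. All cells of zones gave 0, and 1 at resolution 0.3, with a white matter share of 60% or with the cluster led by interneuron genes unnamed, a setting added after seeing the data that changed no other call named here. In astrocyte-like cells 2 genes passed, against 1 without TMM factors, 4 with volume scaling, 1 without the filter, 0 with mixed cells kept, 0 at resolution 0.3 and 0 to 6 with 1 section left out.

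Replicate numbers appear in titles alone, and same-numbered sections deviated with correlations of -0.42 to -0.02 over classes, so they were not taken as pairs. With the replicate block, 1 gene passed in astrocyte-like cells, Gfap in microglia-like cells had an adjusted p of 0.102 and Vim in ependymal-like cells 0.0328. With the numbers crossed, 3 tests in classes, 1 in zones and 6 genes in astrocyte-like cells passed. The cause of these shifts was not tested. Depth limits Synm in astrocyte-like cells, which was detected in 1.46% to 5.02% of thinned cells. With 1 section left out, the age group it came from has 1 section, assumed to vary like the other group.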
